A study of Lachancea kluyveri with 31 samples.

Results

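The iron response of the sef1Δaft1Δ double deletion of Lachancea kluyveri was taken over all genes from 8 arrays, 4 of sef1Δaft1Δ cells at low iron and 4 of sef1Δaft1Δ cells at high iron, out of 31 arrays in the series. The arrays were taken by their labels, and the strain was picked with its wide iron response in these data already known. sef1Δaft1Δ cells lack SEF1 (replaced by KanMX6) and AFT1 (replaced by HphMX4) in a MATa ura3 background, and the strain is 1 clone derived from a sef1Δ strain. The strains set beside it, each with low-iron and high-iron arrays, were aft1Δ (8 arrays), sef1Δ (7 arrays), and wild type (WT, 8 arrays), which carries MATa and ura3 as well.

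Cells grown overnight in YPD (28°C) were brought to 0.5 OD600/ml in the test medium and collected 5.5 h later, at 30°C. Low iron meant YPD to which 200 µM of the ferrous chelator BPS had been added, and high iron meant YPD supplemented with ferrous ammonium sulfate at 400 µM. These units are those of the study's text, whereas the sample labels give both doses in mM. RNA was hybridized in one color, 1 array per biological replicate.

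Budding yeasts take up iron through ferric reductases (the FRE genes), a ferroxidase and permease pair (FET3 and FTR1), and siderophore transporters (the ARN and SIT genes). In S. cerevisiae these genes are switched on at low iron by the activator Aft1, and in Candida albicans the zinc cluster factor Sef1 has that role. Iron is then used in heme, in iron-sulfur clusters, and in proteins of the respiratory chain, the TCA cycle, and amino acid synthesis. The question asked of the double deletion was which genes still respond to iron when both factors are gone. Roles of genes named below are those of their S. cerevisiae orthologs.

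A level is the log2 intensity of 1 probe per gene relative to the 75th percentile of its array, so levels of different genes are not comparable and a general change in RNA per cell would not be seen. A difference is the low-iron mean minus the high-iron mean on that log2 scale. A gene was called higher or lower where limma's adjusted p was at most 0.05 (Benjamini-Hochberg over all genes) and the change was at least 1.5-fold. The 75th percentile of the 8 sef1Δaft1Δ arrays lay between 11526 and 17492 intensity units, 98.9% to 99.6% of their probes were well above background, and no spot was saturated. All 8 arrays shared a slide and a scan, with low iron in row 2 and high iron in row 1, so that iron and slide row cannot be told apart within a strain. Each strain had a slide of its own, so that strain and slide cannot be told apart in levels.

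The replicate 4 arrays stood apart from the other replicates. The SD over genes of an array's deviation from its group mean was 0.309 for low-iron replicate 4, against 0.181 to 0.201 for the other low-iron arrays, and 0.215 for high-iron replicate 4, against 0.115 to 0.168 for the other high-iron arrays. Several results are therefore also given without both replicate 4 arrays.

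Both deletions were visible in the data. The SEF1 probe (SAKL0F12342g, chromosome F) read −6.21, −6.23, −7.18, and −6.98 on the low-iron arrays and −6.27, −6.93, −6.50, and −6.51 on the high-iron arrays of sef1Δaft1Δ. These levels overlapped and did not differ by the test (−0.09 ± 0.16 (SE), limma adjusted p = 0.68). In WT, on another slide, the SEF1 probe averaged −2.04 at low iron and −1.99 at high iron. In sef1Δaft1Δ it was still well above background on all 4 arrays of each medium. The AFT1 probe (SAKL0A04532g, chromosome A) did not rise well above background in either medium of sef1Δaft1Δ, so no fold is given. That was so for 8 genes in all.

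Of 5316 genes, 380 were higher at low iron in sef1Δaft1Δ (7.15% of the genes tested) and 398 were lower (7.49%). The median difference over all genes was −0.06. Among the called genes, 147 rose and 93 fell at least 2-fold, and 23 rose and 12 fell at least 4-fold. The 4 low-iron arrays did not overlap the 4 high-iron arrays for 335 of the 380 higher genes, where 13.7% of all genes were separated in that direction. They also did not overlap for 362 of the 398 lower genes, where the share over all genes was 18.7%. The second probe of the gene was called the same way for 311 of the 378 higher genes that have one and for 315 of the 398 lower genes. Without the replicate 4 arrays 345 genes were higher and 353 lower, and 322 and 308 of these were also called with all arrays.

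The numbers of genes called in the other strains are given as a description, since the wide response of sef1Δaft1Δ was known when it was picked. In aft1Δ 78 genes were higher (1.47%) and 100 lower (1.88%), in sef1Δ 175 were higher (3.29%) and 134 lower (2.52%), and in WT 149 were higher (2.80%) and 101 lower (1.90%). Of the genes higher in sef1Δaft1Δ, 63 were also higher in WT, which is 16.6% of the sef1Δaft1Δ list and 42.3% of the WT list. Of the genes lower in sef1Δaft1Δ, 29 were also lower in WT, 7.29% of the sef1Δaft1Δ list and 28.7% of the WT list. Opposite calls were made for 13 genes higher in sef1Δaft1Δ and lower in WT and for 9 genes lower in sef1Δaft1Δ and higher in WT. Called in sef1Δaft1Δ and in no other strain were 229 of the higher and 313 of the lower genes, without a test of that difference.

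The difference itself was tested as a strain by iron interaction. The response of sef1Δaft1Δ was above that of WT for 351 genes (6.61% of 5312 tested) and below it for 374 (7.04%). Against aft1Δ it was above for 355 genes (6.68% of 5316) and below for 402 (7.56%). Of the 380 genes higher in sef1Δaft1Δ, 171 also responded above both WT and aft1Δ, and of the 398 lower genes 146 responded below both. Both interactions use the same sef1Δaft1Δ arrays.

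**Figure D1:**
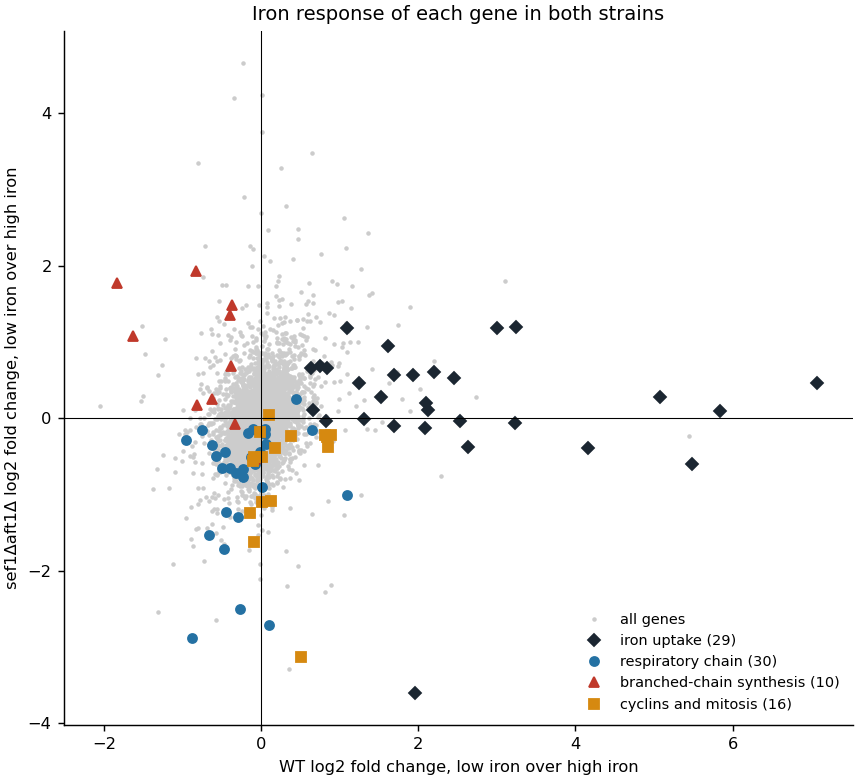
The log2 difference between low and high iron in sef1Δaft1Δ (vertical axis) is plotted against that in WT (horizontal axis) for each gene, with 4 gene lists marked. The iron-uptake genes spread to the right, up to 7.07 in WT, and lie between −3.60 and 1.21 in sef1Δaft1Δ, whereas the genes of branched-chain amino acid synthesis that rose lie to the left of 0.

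Most iron-uptake genes responded little in sef1Δaft1Δ. Of the 29 iron-uptake related genes, a list the study chose on its WT arrays and so no independent evidence of direction there, 8 were called higher and 2 lower in sef1Δaft1Δ, where 7.15% and 7.49% of all genes were, with a median difference of 0.29 against −0.06 over all genes. Without replicate 4, and likewise with median scaling, 10 were higher and 1 lower. FET4 (0.67) and FET1 (0.63) were then called without replicate 4, both with probes marked as cross-hybridizing, and FET3 was not. In aft1Δ 3 were higher (ZRT1, the deleted AFT1 itself, and ARN3, whose probe was near background) and 3 lower, in sef1Δ 27 were higher, and in WT all 29 were higher with a median of 2.09. The interaction placed 24 of the 29 below WT, AFT1 and ARN3 included, and none above it. Against aft1Δ, 7 of the 29 responded more positively in sef1Δaft1Δ and 2 more negatively.

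FRE2, a ferric reductase (SAKL0F14784g, chromosome F), showed the widest gap to WT. It read −5.33, −5.14, −5.53, and −4.64 at low iron and −5.57, −5.72, −5.75, and −5.45 at high iron in sef1Δaft1Δ, a difference of 0.46 ± 0.18 (SE, adjusted p = 0.037) that stayed under 1.5-fold. In WT the FRE2 difference was 7.07, and sef1Δaft1Δ lay −6.61 ± 0.25 (SE) from WT (limma adjusted p = 8.8e-19). FET3, the multicopper ferroxidase (SAKL0B12056g, chromosome B), read −2.77, −2.83, −2.91, and −2.92 at low iron, all below its −2.02, −2.45, −2.34, and −2.26 at high iron. FET3 thus fell by a little over 1.5-fold in sef1Δaft1Δ (−0.59 ± 0.11, adjusted p = 7.9e-05) and by a similar amount in aft1Δ (−0.72), with a difference of 5.49 in WT. This FET3 call lay at the 1.5-fold limit and was lost without high-iron replicate 1 (−0.51) or low-iron replicate 3 or 4 (both −0.57), and under quantile (−0.58), median (−0.57), or normexp (−0.56) processing. The siderophore transporters SIT1 and ARN1 were at 0.10 and 0.29 in sef1Δaft1Δ, neither called, against 5.84 and 5.08 in WT. FTR1, the iron permease, was at −0.39 in sef1Δaft1Δ and 4.16 in WT.

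A few members of the list kept a positive response. CTH1, an RNA-binding protein that promotes decay of messages for iron-using proteins (SAKL0H15334g, chromosome H), read −1.005, −1.40, −0.77, and −0.50 at low iron and −2.18, −2.06, −2.06, and −2.19 at high iron, with no overlap. It rose by 1.21 ± 0.14 (SE, adjusted p = 3.9e-08) in sef1Δaft1Δ, against 0.34 in aft1Δ and 3.25 in WT, and the sef1Δaft1Δ response exceeded that of aft1Δ by 0.87 ± 0.19 (adjusted p = 0.0016). ARN2, a siderophore transporter, read −2.45, −2.58, −2.11, and −3.02 at low iron and −3.69, −3.61, −3.63, and −3.98 at high iron. Its rise of 1.19 ± 0.12 in sef1Δaft1Δ (adjusted p = 7.1e-09) exceeded the aft1Δ response of −0.32 by 1.504 ± 0.17 (adjusted p = 4.1e-07). The copper transporter genes CTR1, CTR2, and CTR3 rose by 0.67, 0.69, and 0.95, and the reductase gene FRE1 by 0.67. ZRT1, the high-affinity zinc transporter, rose by 1.19 in sef1Δaft1Δ and 2.02 in aft1Δ. The CTR1 call was lost without low-iron replicate 3 (0.57). The FTR2 call (0.60) was not shared by its second probe (0.01) and was lost without high-iron replicate 1, 2, or 3 or low-iron replicate 4 (0.47 to 0.56). With the second probe of each gene, 5 of the 29 were called higher. The ARN3 probe stayed near background in every strain, and no fold of ARN3 is given.

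HMX1, the heme oxygenase that releases iron from heme (SAKL0F11242g, chromosome F), went the other way from WT. It read −4.91, −4.76, −4.51, and −3.47 on the low-iron arrays and −0.72, −0.81, −1.04, and −0.67 on the high-iron arrays of sef1Δaft1Δ, so that every low-iron array lay far below every high-iron array. The difference of −3.60 ± 0.26 (SE, adjusted p = 2.8e-12) was the most negative of all genes called lower in sef1Δaft1Δ. HMX1 also fell in aft1Δ (−3.38), and the response of sef1Δaft1Δ was not shown to differ from that of aft1Δ (−0.22 ± 0.36, adjusted p = 0.69). In WT HMX1 rose by 1.96.

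**Figure D2:**
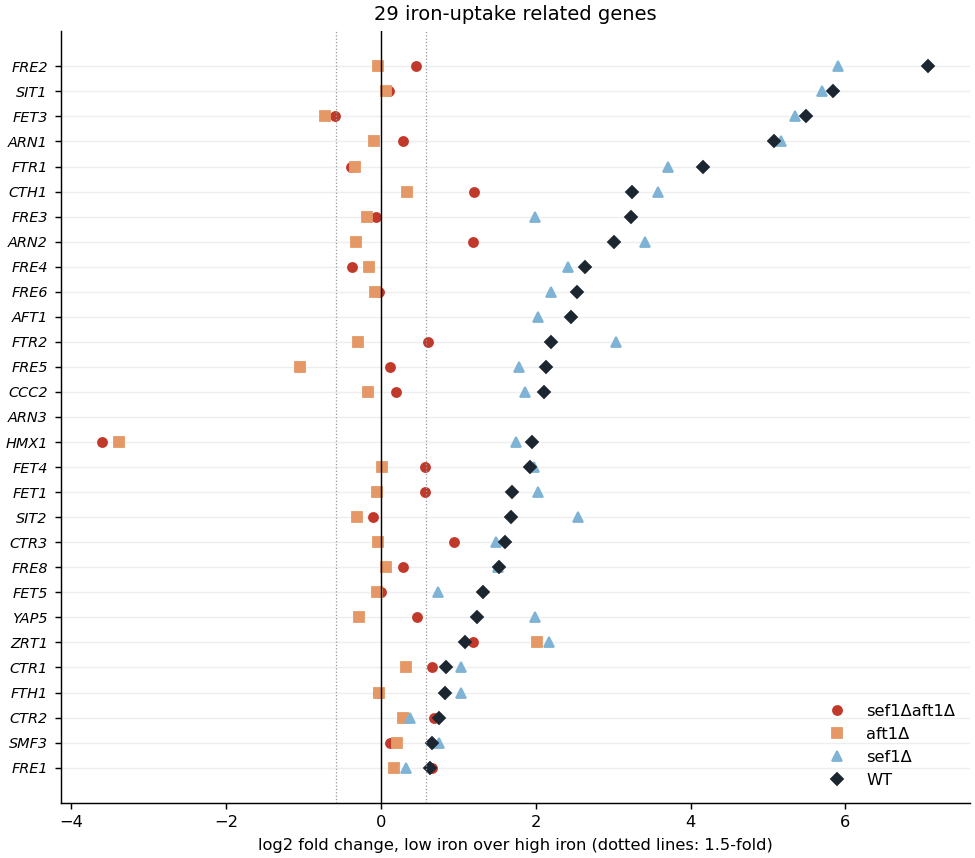
Log2 differences between low and high iron are shown for the 29 iron-uptake related genes in sef1Δaft1Δ, aft1Δ, sef1Δ, and WT, ordered by the WT value, without points whose probe was not well above background in both media. Most WT and sef1Δ points lie to the right, and the sef1Δaft1Δ and aft1Δ points lie within 1 log2 unit of 0 apart from HMX1 (−3.60 in sef1Δaft1Δ) and ZRT1 in sef1Δaft1Δ, ARN2 (1.19) and CTH1 (1.21) in sef1Δaft1Δ, and ZRT1 (2.02), HMX1, and FRE5 in aft1Δ.

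The largest rises of sef1Δaft1Δ were outside that list. Among genes with an ortholog name, the largest rise was that of SAKL0E08580g (chromosome E), a gene named after FAS2, which encodes the alpha subunit of fatty acid synthase. It read 0.52, 0.71, 0.88, and 1.62 at low iron and −3.58, −3.84, −3.71, and −2.08 at high iron, with no overlap, and replicate 4 was highest in both media. Its rise was 4.24 ± 0.30 (SE, adjusted p = 2.6e-12), against 2.85 in aft1Δ and 0.02 in WT. The other gene of that name, SAKL0A03454g, differed by 0.44 in sef1Δaft1Δ and was not called. CRG1, a methyltransferase gene (SAKL0H24178g, chromosome H), read 1.07, 0.58, 1.60, and 1.75 at low iron and −2.29, −2.63, −2.57, and −2.55 at high iron. It rose by 3.76 ± 0.20 (adjusted p = 6.9e-15) in sef1Δaft1Δ and by 2.75 in aft1Δ, with 0.01 in WT.

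Genes named after alcohol dehydrogenases and peroxisomal proteins were also among the largest rises. SFA1, named after a glutathione-dependent formaldehyde dehydrogenase (SAKL0A00880g, chromosome A), read −4.44, −4.25, −4.26, and −1.15 at low iron and −7.44, −7.41, −7.15, and −5.48 at high iron, with replicate 4 far above the others in both media. Its rise was 3.35 ± 0.49 (adjusted p = 2.4e-06) with all arrays and 3.02 without replicate 4. In WT the SFA1 probe was well above background on all 4 high-iron arrays and on 0 of 4 low-iron arrays, so that the low-iron level is only a bound and no WT fold is given. ADH5, another alcohol dehydrogenase gene (SAKL0H00374g, chromosome H), rose by 2.36 ± 0.13 (7.5e-15, adjusted), with 0.10, −0.02, 0.12, and 0.83 at low iron and −2.25, −2.01, −2.13, and −2.004 at high iron. ADH5 was also called higher in aft1Δ (0.75), a response that sef1Δaft1Δ exceeded by 1.605 ± 0.18. PXA1, a subunit of the peroxisomal importer of long-chain fatty acids, rose by 2.47 ± 0.17 (adjusted p = 1.8e-12), and its aft1Δ difference was 0.16. PEX18, which helps import proteins into peroxisomes, rose by 2.16 ± 0.20 (adjusted p = 5.9e-10), with −0.06 in aft1Δ. PEX18 was also called higher in sef1Δ (1.635) and WT (0.76), whereas PXA1 was not (0.41 and 0.09). Both exceeded the aft1Δ response, PXA1 by 2.31 ± 0.24 and PEX18 by 2.21 ± 0.28 (adjusted p = 1.3e-07 and 1.5e-06).

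Other large rises were ESBP6, a monocarboxylate transporter-like gene (2.90), HSP30, a heat shock protein of the plasma membrane (2.79, or 2.29 without replicate 4), ATG22, a vacuolar amino acid exporter (2.63), MOH1 (2.43), ECM13 (2.26), and SPO23 (2.26). ATG22 was also called higher in sef1Δ (3.41), aft1Δ (2.045), and WT (1.05), as was MOH1 (1.24, 0.96, and 1.36). ESBP6 was also called higher in aft1Δ (0.70). In sef1Δ ECM13 rose (1.33) and SPO23 fell (−1.93). Genes without an ortholog name stood at the top as well. SAKL0B12606g (chromosome B) had the largest rise of all, with −1.09, −2.30, −1.69, and −1.01 at low iron, −5.86, −6.24, −6.52, and −6.12 at high iron, and a difference of 4.67 ± 0.25 (adjusted p = 1.2e-14). SAKL0B00154g, SAKL0A03696g, SAKL0D15224g, and SAKL0G14388g rose by 4.21, 3.48, 3.28, and 2.70. In aft1Δ SAKL0B12606g (1.82), SAKL0B00154g (1.92), SAKL0D15224g (1.30), and SAKL0A03696g (0.61) were also called higher, and SAKL0G14388g was not. SAKL0A03696g was also called higher in sef1Δ (1.48) and WT (0.65). Each of these unnamed genes responded above aft1Δ by the interaction.

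**Figure D3:**
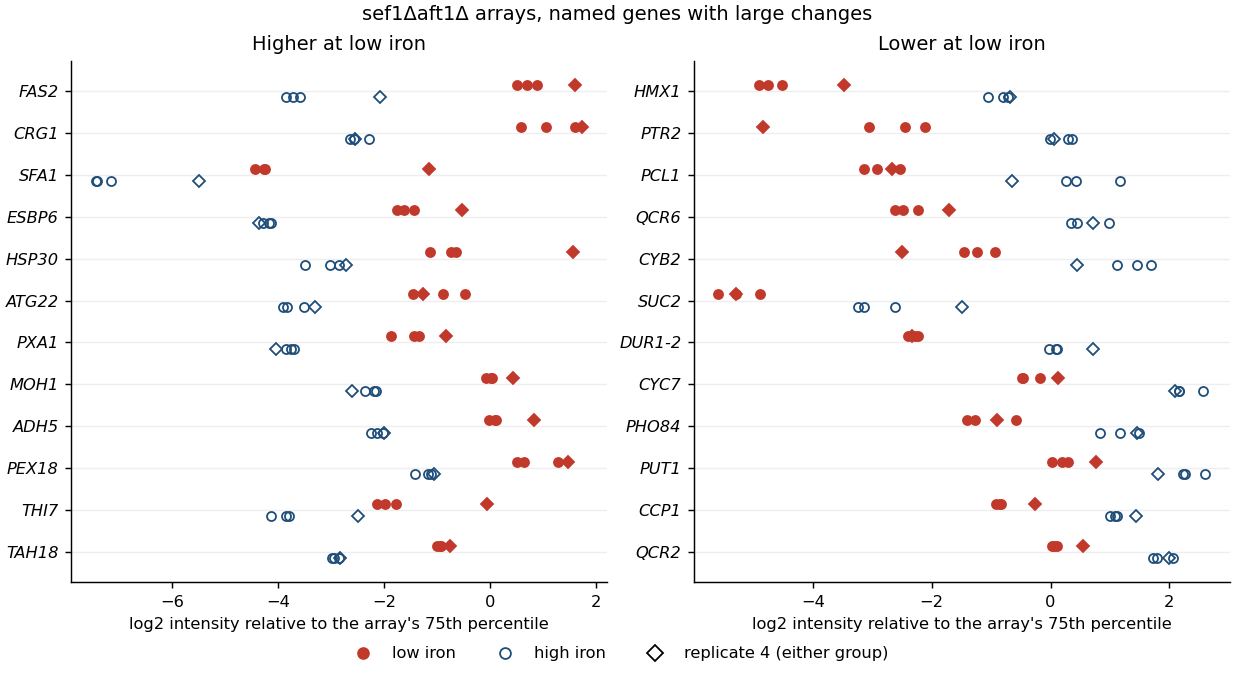
Each point is the level of 1 gene on 1 sef1Δaft1Δ array, as log2 intensity relative to the array's 75th percentile, for 12 named genes that rose and 12 that fell at low iron. The genes were taken from the largest changes with separated groups, so the low-iron points (filled) and high-iron points (open) lie apart by that choice. Replicate 4 (diamonds) is the most distant point for several, such as SFA1, HSP30, and PTR2.

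After HMX1, the largest named fall was that of PTR2, the importer of di- and tripeptides (SAKL0E14828g, chromosome E). It read −3.05, −2.12, −2.46, and −4.83 at low iron and −0.01, 0.37, 0.29, and 0.06 at high iron, with replicate 4 lowest, and fell by 3.29 ± 0.29 (SE, adjusted p = 2.7e-10), or −2.76 without replicate 4. The nutrient genes SUC2, DUR1-2, and PHO84 were also among the largest falls. SUC2, the secreted invertase, was −5.27 ± 0.28 at low iron and −2.62 ± 0.81 at high iron (SD, n = 4 each, difference −2.64). DUR1-2, the biotin-dependent urea amidolyase, read −2.27, −2.23, −2.41, and −2.33 at low iron and −0.02, 0.11, 0.09, and 0.71 at high iron, a difference of −2.53 ± 0.14 against −1.79 in aft1Δ and −1.32 in WT. PHO84, the high-affinity phosphate transporter, read −0.58, −1.40, −1.27, and −0.90 at low iron and 1.49, 1.17, 0.83, and 1.46 at high iron. PHO84 fell by 2.28 ± 0.26 (adjusted p = 2.8e-08) in sef1Δaft1Δ and rose by 0.81 in WT, an interaction of −3.09 ± 0.36 (adjusted p = 1.6e-07). PHO84 and SUC2 also fell in sef1Δ (−1.05 and −1.535), and SUC2 in aft1Δ (−1.07).

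FET2 (SAKL0H26202g) and its chromosome H neighbor in the numbering, SAKL0H26180g, fell (−1.93 and −2.11). Both also fell in sef1Δ (−1.75 and −1.94), and SAKL0H26180g fell in aft1Δ (−1.095). SUE1, which takes part in the turnover of unstable cytochrome c, fell in sef1Δaft1Δ (−2.19) and in aft1Δ (−2.02), and rose by 0.89 in WT. SAKL0F11220g and SAKL0C12474g fell (−2.20 and −1.91).

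Genes of the respiratory chain and ATP synthase, taken as 1 list, fell in 15 of 30 cases, with no member called higher, where 7.49% of all genes were lower. The median difference of the 30 genes was −0.55 against −0.06 over all genes. A positive difference was found for 1 of the 30, where 2328 of all 5316 genes had one. The same 30 genes had 7 lower members in aft1Δ, 16 in sef1Δ, and 5 in WT, together with 2 higher in WT. The interaction placed 10 of them below and 2 above WT, and 5 below and 0 above aft1Δ.

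Of complex III, which passes electrons from ubiquinol to cytochrome c, 5 called members are described. QCR6 (SAKL0F07370g, chromosome F) read −2.23, −2.48, −2.62, and −1.72 at low iron and 0.98, 0.34, 0.44, and 0.71 at high iron, with a wide gap between the groups. The difference was −2.88 ± 0.16 (SE, adjusted p = 1.0e-14) in sef1Δaft1Δ, against −1.61 in aft1Δ and −0.87 in WT, and the interactions were −2.002 ± 0.22 against WT (adjusted p = 6.6e-08) and −1.26 ± 0.22 against aft1Δ (adjusted p = 1.6e-04). QCR2, a core subunit, read 0.11, 0.02, 0.06, and 0.55 at low iron and 2.07, 1.80, 1.72, and 1.99 at high iron, a difference of −1.71 ± 0.11 (adjusted p = 3.5e-13). RIP1, the Rieske iron-sulfur subunit, read 0.03, −0.21, −0.05, and 0.18 at low iron and 1.59, 1.49, 1.45, and 1.52 at high iron and fell by 1.52 ± 0.11 (adjusted p = 1.9e-12). COR1, the other core subunit, and CYT1, cytochrome c1, fell (−1.29 and −1.22). All 5 were also called lower in both single deletions. In sef1Δ QCR6, QCR2, RIP1, COR1, and CYT1 were at −1.34, −0.88, −1.14, −0.88, and −0.99. In aft1Δ QCR2, RIP1, COR1, and CYT1 were at −0.96, −0.89, −0.76, and −0.85. RIP1 (−0.66) and QCR6 were also called lower in WT. COR1 and CYT1 were not called different from aft1Δ by the interaction, whereas QCR2 and RIP1 were.

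Electron carriers that meet complex III at cytochrome c fell too. CYC7, an isoform of cytochrome c (SAKL0D11858g, chromosome D), read −0.48, −0.17, −0.47, and 0.13 at low iron and 2.57, 2.17, 2.16, and 2.09 at high iron. The difference of −2.50 ± 0.17 (adjusted p = 2.7e-12) compared with −1.495 in aft1Δ and −0.27 in WT, and it was larger than in either strain by the interaction (−1.003 ± 0.24 against aft1Δ, adjusted p = 0.0034, and −2.23 ± 0.26 against WT, adjusted p = 1.3e-07). CYC7 also fell in sef1Δ (−1.16). CYB2, the heme enzyme that passes electrons from lactate to cytochrome c (SAKL0G16852g, chromosome G), read −0.94, −1.24, −1.45, and −2.50 at low iron and 1.45, 1.69, 1.11, and 0.45 at high iron. It fell in sef1Δaft1Δ (−2.71 ± 0.28, adjusted p = 8.4e-09) and in aft1Δ (−2.02), a pair not shown to differ (adjusted p = 0.21), with 0.09 in WT. CYB2 also fell in sef1Δ (−1.48).

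Genes for heme and iron-sulfur proteins moved in both directions. Of 18 genes for heme proteins 6 fell (CYC7, CYT1, and CYB2 among them) and 3 rose, with a median of −0.40. Over all genes 7.49% fell and 7.15% rose. CCP1, cytochrome c peroxidase, read −0.85, −0.91, −0.83, and −0.26 at low iron and 1.09, 0.99, 1.11, and 1.45 at high iron and fell by 1.87 ± 0.14 (adjusted p = 5.4e-12). CTT1, cytosolic catalase, read 1.14, 1.19, and 1.41 at low iron (3 arrays, 1 spot left out as an outlier) and 2.82, 2.55, 2.64, and 2.75 at high iron, a difference of −1.44 ± 0.11. CCP1 and CTT1 were also called lower in aft1Δ (−1.13 and −0.99), sef1Δ (−0.955 and −1.21), and WT (−0.73 and −0.83). Both fell further in sef1Δaft1Δ than in WT by the interaction (adjusted p = 6.5e-05 and 0.0046). None of the 3 that rose, FRE1, DIT2, and YHB1, was called with the methods' t-test after adjustment. YHB1, the flavohemoglobin that detoxifies nitric oxide, rose by 0.79 in sef1Δaft1Δ and differed by −0.83 in WT. Among 7 genes of heme synthesis and transport the only call was PUG1, a protoporphyrin transporter, at −1.13. PUG1 was also called lower in aft1Δ (−0.72), sef1Δ (−1.11), and WT (−0.80).

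Of 20 genes for iron-sulfur proteins 4 rose and 3 fell in sef1Δaft1Δ, where 7.15% and 7.49% of all genes did. In WT 11 fell and none rose, and the interaction placed 8 above and 2 below WT. The 4 that rose were LEU1, ILV3, GLT1 (glutamate synthase), and BIO2 (biotin synthase). GLT1 read 0.56, 0.92, 0.55, and 1.31 at low iron and −0.34, 0.28, −0.17, and 0.21 at high iron, a rise of 0.84 ± 0.16 (adjusted p = 1.0e-04), where WT had −1.48. The BIO2 rise of 0.60 was lost without high-iron replicate 2 (0.51) or low-iron replicate 4 (0.47), and it was 0.58 without high-iron replicate 3, just under the 1.5-fold limit. CIR2, an electron-transfer flavoprotein dehydrogenase, fell by 1.31 and was also called lower in aft1Δ (−0.98), sef1Δ (−1.325), and WT (−0.955).

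Among 16 genes that build iron-sulfur clusters or supply iron to them, 2 rose and 2 fell, where 7.15% and 7.49% of all genes did. TAH18, which feeds electrons into the cytosolic assembly of iron-sulfur clusters (SAKL0B07040g, chromosome B), read −0.95, −0.99, −0.92, and −0.74 at low iron and −2.84, −2.94, −2.97, and −2.83 at high iron, with little spread in either group. It rose by 1.997 ± 0.11 (adjusted p = 1.0e-14) in sef1Δaft1Δ and 0.84 in aft1Δ, with −0.12 in WT, and sef1Δaft1Δ exceeded aft1Δ by 1.16 ± 0.16 (adjusted p = 3.6e-06). NFS1, the cysteine desulfurase that supplies the sulfur, rose by 0.78. GRX4, a glutaredoxin that carries iron-sulfur clusters, read −1.67, −0.60, −1.30, and −0.72 at low iron and 0.26, 0.83, 0.78, and 0.51 at high iron and fell by 1.67 ± 0.15. GRX4 was also called lower in aft1Δ (−1.09), sef1Δ (−0.62), and WT (−0.865). CCC1, the vacuolar iron importer, fell by 0.66 in sef1Δaft1Δ, less than in WT (−1.32) by the interaction (0.67 ± 0.19, adjusted p = 0.01).

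TCA cycle genes changed little. Of 21 measured, 2 were called higher and none lower, where 7.15% and 7.49% of all genes were, with a median of 0.21. In WT 0 were higher and 5 lower, and the interaction placed 6 above WT. LSC2, a subunit of succinyl-CoA ligase, read 2.09, 1.91, 2.23, and 2.45 at low iron and 1.48, 1.48, 1.40, and 1.34 at high iron and rose by 0.74 ± 0.11 (adjusted p = 3.4e-06). The other call, CIT3 (1.05), was not shared by its second probe (−0.06). KGD1 and KGD2, subunits of the 2-oxoglutarate dehydrogenase complex, and FUM1, fumarase, had positive differences of 0.51, 0.55, and 0.49, and the aconitase gene ACO1 had −0.56, all under 1.5-fold. Without low-iron replicate 4, ACO1 (−0.66) and IDP1 (−0.75) were called lower, without high-iron replicate 4 ACO1 was (−0.63), and without low-iron replicate 2 or 3 CIT1, citrate synthase, was (−0.62 without replicate 3, −0.615 without replicate 2).

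Genes of leucine, isoleucine, and valine synthesis rose. Of 10 measured genes 6 were called higher and none lower, where 7.15% of all genes were higher, and the median difference was 0.88. One of the 10 was called lower without high-iron replicate 2 or low-iron replicate 1. In aft1Δ 4 were higher and none lower, in sef1Δ none was higher and 4 were lower, and in WT none was higher and 5 were lower. The interaction placed 8 of the 10 above WT and none below, and 4 above and 1 below aft1Δ.

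LEU1, the iron-sulfur isomerase of leucine synthesis (SAKL0H21868g, chromosome H), read 3.40, 3.27, 3.55, and 4.32 at low iron and 1.94, 1.84, 1.76, and 1.90 at high iron in sef1Δaft1Δ, so that every low-iron array was higher. It rose by 1.77 ± 0.14 (SE, adjusted p = 3.4e-11) in sef1Δaft1Δ and by 1.01 in aft1Δ, and fell by 1.83 on the log2 scale in WT. The sef1Δaft1Δ response lay 3.61 ± 0.20 above WT (adjusted p = 1.4e-14) and 0.76 ± 0.20 above aft1Δ (adjusted p = 0.0057). LEU9, an isopropylmalate synthase at the start of the leucine branch (SAKL0F05170g, chromosome F), read 1.44, 0.79, 1.46, and 1.73 at low iron and −0.58, −0.51, −0.48, and −0.78 at high iron, a rise of 1.94 ± 0.15 (adjusted p = 1.1e-11). LEU2, isopropylmalate dehydrogenase, read 4.15, 3.75, 3.88, and 4.06 at low iron and 2.56, 2.28, 2.48, and 2.58 at high iron and rose by 1.49 ± 0.11. BAT1, the mitochondrial branched-chain aminotransferase, rose by 1.35 ± 0.10, the iron-sulfur dehydratase gene ILV3 by 1.08 ± 0.12, and ILV6, the regulatory subunit of acetolactate synthase, by 0.68 ± 0.09 (adjusted p = 4.6e-12, 4.4e-08, and 6.2e-07). In WT, ILV3 and LEU9 fell (−1.63 and −0.83).

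**Figure D4:**
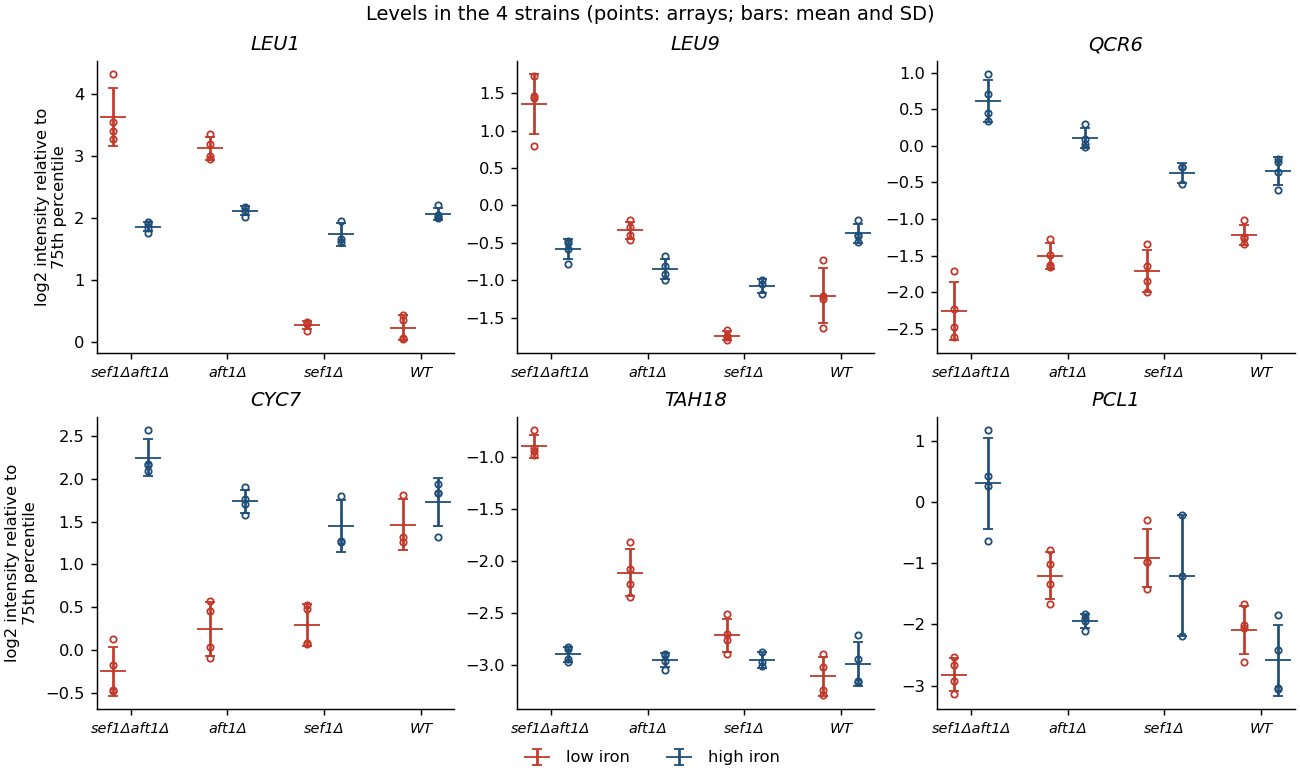
Levels of 6 genes are shown on every array of the 4 strains, low iron left of high iron within a strain, as log2 intensity relative to the 75th percentile, with group means and SDs. LEU1 and LEU9 are highest in sef1Δaft1Δ at low iron, QCR6 and CYC7 are lowest there, TAH18 is highest there, and PCL1 is highest in sef1Δaft1Δ at high iron.

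Among other amino acid genes calls went both ways, where 7.15% of all genes rose and 7.49% fell. Of 13 genes of arginine and glutamate metabolism 5 rose and 3 fell. PUT1 and PUT2, the enzymes that break down proline to glutamate, fell (−1.90 ± 0.17 and −1.18 ± 0.14). PUT1 read 0.30, 0.20, 0.02, and 0.77 at low iron and 2.60, 2.26, 2.23, and 1.81 at high iron. PUT3, named after the activator of these genes, read 0.01, 0.12, −0.01, and 0.16 at low iron and −1.09, −1.09, −1.16, and −1.44 at high iron and rose by 1.26 ± 0.13, opposite to PUT1 and PUT2. PUT3 was also called higher in WT (0.76). ARG1, argininosuccinate synthetase, rose by 0.89. Of 17 sulfur and methionine genes 1 rose (STR3, cystathionine beta-lyase, 1.74) and 1 fell (MET17, −0.65, or −0.55 and not called without high-iron replicate 4). STR3 was also called higher in sef1Δ (1.41). Of 12 histidine and aromatic genes HIS4 (0.59) and HIS5 (0.67) rose, and HIS4 lost its call without 1 of 3 arrays in turn, high-iron replicate 2 (0.50), high-iron replicate 3 (0.53), or low-iron replicate 3 (0.50). None of 7 lysine synthesis genes was called.

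Some vitamin genes rose, with replicate 4 high in both media. Of 18 genes for biotin, thiamine, vitamin B6, and NAD, 6 rose and 1 fell, where 7.15% and 7.49% of all genes did, with a median of 0.21. With the methods' t-test after adjustment none of the 6 was called. The biotin synthesis gene BIO3 (SAKL0H09504g, chromosome H) read −2.31, −2.25, −2.55, and 0.34 at low iron and −4.73, −4.59, −4.56, and −2.87 at high iron, a rise of 2.49 ± 0.42 (adjusted p = 1.9e-05). In both media replicate 4 stood above the other 3 arrays. A second BIO3 gene (SAKL0H11528g) rose by 1.86, or 1.37 without replicate 4, and BIO4 beside it by 1.33, or 0.93 without replicate 4, with overlapping groups in both cases. THI7, the thiamine transporter, read −1.97, −2.12, −1.76, and −0.05 at low iron and −4.13, −3.85, −3.80, and −2.49 at high iron and rose by 2.09 ± 0.32. THI7 was also called higher in aft1Δ (1.03), a pair not shown to differ by the interaction (adjusted p = 0.082). THI13, of thiamine precursor synthesis, fell in sef1Δaft1Δ (−1.08) and in aft1Δ (−1.12) and rose by 0.85 in WT.

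Of 26 heat shock and chaperone genes 7 rose and 1 fell, where 7.15% and 7.49% of all genes did, with a median of 0.23. HSP30 read −0.72, −0.63, −1.13, and 1.58 at low iron and −3.48, −2.85, −3.01, and −2.72 at high iron, and after it HSP78, the mitochondrial disaggregase, rose by 0.80 (1 high-iron spot left out) and AHA1, a cochaperone of Hsp90, by 0.68. The AHA1 call was lost without high-iron replicate 1 (0.55), where 4 of the 26 were called higher. With the second probe of each gene 3 of the 26 were called higher. In WT 4 of the 26 fell and none rose, and the interaction placed 8 above and 1 below WT.

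Among 21 oxidative stress and redox genes 4 rose and 4 fell, where 7.15% and 7.49% of all genes did. OYE3, an NADPH oxidoreductase, read −0.28, −0.29, −0.20, and 0.31 at low iron and −1.69, −1.39, −1.41, and −1.27 at high iron and rose by 1.32 ± 0.11, and PRX1, a mitochondrial peroxiredoxin, rose by 0.76. The 4 that fell were CCP1, CTT1, GRX4, and GRX2, a glutaredoxin. Of 18 autophagy and vacuolar genes 3 rose and none fell, among them ATG22, which read −0.46, −1.44, −0.88, and −1.26 at low iron and −3.51, −3.91, −3.83, and −3.30 at high iron, and AMS1, vacuolar mannosidase (0.75, or 0.53 and not called without replicate 4).

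Of 24 genes for hexose transport and glucose sensing 5 rose and 2 fell, where 7.15% and 7.49% of all genes did. With the replicate number as a block 4 fell, and without replicate 4 there were 4 rises and 4 falls. HXT3, a low-affinity glucose transporter, read 1.32, 1.41, 1.77, and 1.95 at low iron and 0.01, 0.32, 0.55, and −0.44 at high iron and rose by 1.51 ± 0.18 (adjusted p = 1.0e-07). MIG2, a glucose repressor, read −0.55, −1.09, −0.29, and −0.65 at low iron and −2.26, −2.12, −1.79, and −2.21 at high iron and rose by 1.45 ± 0.16, and MTH1, which regulates hexose transporter genes, rose by 1.06. In aft1Δ the differences were −0.20, 0.27, and −0.36, and the sef1Δaft1Δ response exceeded aft1Δ by 1.71 ± 0.26 for HXT3 (adjusted p = 2.3e-05). In sef1Δ the differences were 1.05, 1.501, and 0.36, with HXT3 and MIG2 called, and in WT 0.38, 1.15, and 0.81, with MIG2 and MTH1 called. HXT3 exceeded WT by 1.12 ± 0.26 (adjusted p = 0.0019). MIG2 and MTH1 were not shown to differ from WT (0.30 ± 0.23 and 0.25 ± 0.19, adjusted p = 0.37 for each). PDC1, pyruvate decarboxylase, was the only one called of 19 glycolysis and fermentation genes, with 1.86, 1.94, 2.10, and 1.62 at low iron, 0.65, 0.95, 0.98, and 0.65 at high iron, and a rise of 1.07 ± 0.12. PDC1 was also called higher in sef1Δ (0.61) and WT (0.59). IMA5, an isomaltase gene, was called lower (−1.44), with −4.07, −4.04, −4.05, and −0.98 at low iron and −2.46, −2.27, −2.52, and −0.13 at high iron, and it lost the call without high-iron replicate 4 (−0.87) or without any 1 of low-iron replicates 1 to 3 (−1.18 to −1.19).

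Of 20 genes of the glyoxylate shunt, gluconeogenesis, and acetate use, 5 fell and 3 rose, where 7.49% and 7.15% of all genes did. JEN1, a lactate and pyruvate importer, read −3.63, −3.36, −3.72, and −1.15 at low iron, with replicate 4 apart, and −1.60, −0.92, −1.28, and −1.71 at high iron, a difference of −1.59 with overlapping groups, or −2.31 without replicate 4. YAT1, carnitine acetyltransferase, and MLS1, malate synthase, fell (−1.07 and −1.03), and SFC1, a mitochondrial succinate and fumarate carrier, rose by 0.88. YAT1 and MLS1 were also called lower in aft1Δ (−0.94 and −0.70), sef1Δ (−0.73 and −0.75), and WT (−0.77 and −0.62). JEN1 was also called lower in aft1Δ (−1.10) and sef1Δ (−1.10). Its response in sef1Δaft1Δ was not shown to differ from WT or aft1Δ by the interaction (adjusted p = 0.12 and 0.50). Without replicate 4, 1 of the 20 was called higher.

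Several cyclin genes fell. Of 16 genes for cyclins and mitosis 5 fell and none rose, where 7.49% of all genes fell. The median was −0.45 against −0.06 over all genes, and 1 difference was positive, against 2328 of 5316 over all genes. In RNA of whole cultures, fewer cells in a phase of the cycle and less of an RNA per cell cannot be told apart. In aft1Δ none of the 16 was called, in sef1Δ 3 rose, and in WT 4 rose. The interaction placed 10 below WT and 6 below aft1Δ, with none above either.

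PCL1, a cyclin partner of the kinase Pho85 (SAKL0C12100g, chromosome C), read −2.54, −3.14, −2.93, and −2.67 at low iron and 1.17, 0.26, 0.43, and −0.65 at high iron in sef1Δaft1Δ, with the widest spread at high iron. It fell by 3.12 ± 0.33 (SE, adjusted p = 1.1e-08), against differences of 0.74 in aft1Δ and 0.50 in WT, neither called. The sef1Δaft1Δ response was −3.86 ± 0.47 from aft1Δ (adjusted p = 9.0e-07), the most negative among genes with an ortholog name. The high-iron mean of PCL1 was 0.30 ± 0.75 in sef1Δaft1Δ (SD, n = 4), −1.94 in aft1Δ, and −2.59 in WT, on separate slides. CLB6, an S-phase cyclin, read −4.30, −4.41, −3.99, and −3.56 at low iron and −1.59, −2.79, −2.54, and −2.87 at high iron and fell by 1.62 ± 0.23. CLB1, a mitotic cyclin, read −1.94, −2.36, −1.99, and −2.16 at low iron and −0.86, −1.096, −1.16, and −0.40 at high iron and fell by 1.23 ± 0.13. CLN2, a G1 cyclin, and PCL2 fell (−1.101 and −1.08), and all 5 were separated between the media.

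Other cell-cycle genes fell alongside. YHP1, a repressor that acts at the early cell-cycle box, fell by 1.73 ± 0.29 (adjusted p = 1.9e-05), with high-iron levels of −1.43, −2.85, −2.86, and −3.49. Of 33 histone and replication genes 5 fell and none rose, where 7.49% and 7.15% of all genes did. The falls were led by POL30, the sliding clamp PCNA (−0.88), and 8 or 9 fell without high-iron replicate 2, low-iron replicate 1, or low-iron replicate 4. Outside these lists, INO1, inositol phosphate synthase, read −4.38, −4.40, −4.64, and −3.92 at low iron and −2.54, −3.13, −3.33, and −3.29 at high iron and fell by 1.26 ± 0.17 in sef1Δaft1Δ, whereas it rose by 0.70 in aft1Δ and 1.05 in WT. Its response in sef1Δaft1Δ was −1.96 ± 0.24 from aft1Δ (adjusted p = 9.0e-07). Of 20 mating genes, set against the same shares over all genes, KAR4 rose (0.87) and 3 fell, among them PRM1 (−0.74). None of the 20 was lower without low-iron replicate 4 (PRM1, −0.55).

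Ribosomal protein genes shifted down by small amounts that depended on the scaling. Of 76 cytosolic ribosomal protein genes 11 fell and none rose, where 7.49% and 7.15% of all genes did. Of the 76, 1 had a positive difference, where 2328 of all 5316 genes did, and the median was −0.43. Without replicate 4, and likewise under quantile normalization, 1 of the 76 was called lower, with medians of −0.28 and −0.26. Leaving out single arrays gave 2 (without high-iron replicate 4), 5 (without low-iron replicate 4), and 21 lower genes (without high-iron replicate 2). RPS22A read 2.03, 2.17, 2.08, and 1.83 at low iron and 3.01, 2.73, 3.09, and 3.51 at high iron and fell by 1.06 ± 0.15 (adjusted p = 2.0e-06). ASC1, a ribosome-bound signaling protein, fell by 0.71, a call lost in both of those settings (−0.49 without replicate 4 and −0.53 under quantile normalization). In aft1Δ and WT none of the 76 was called, and the interaction placed 28 below aft1Δ and none below WT. Of 37 mitochondrial ribosomal protein genes 2 fell, 0 without replicate 4, and 0 to 5 when 1 array was left out. Of 64 ribosome biogenesis genes 3 rose, among them UTP20 (0.90), and 4 fell, among them RPA12 (−0.88) and NIP7 (−0.82), counts near the background.

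**Figure D5:**
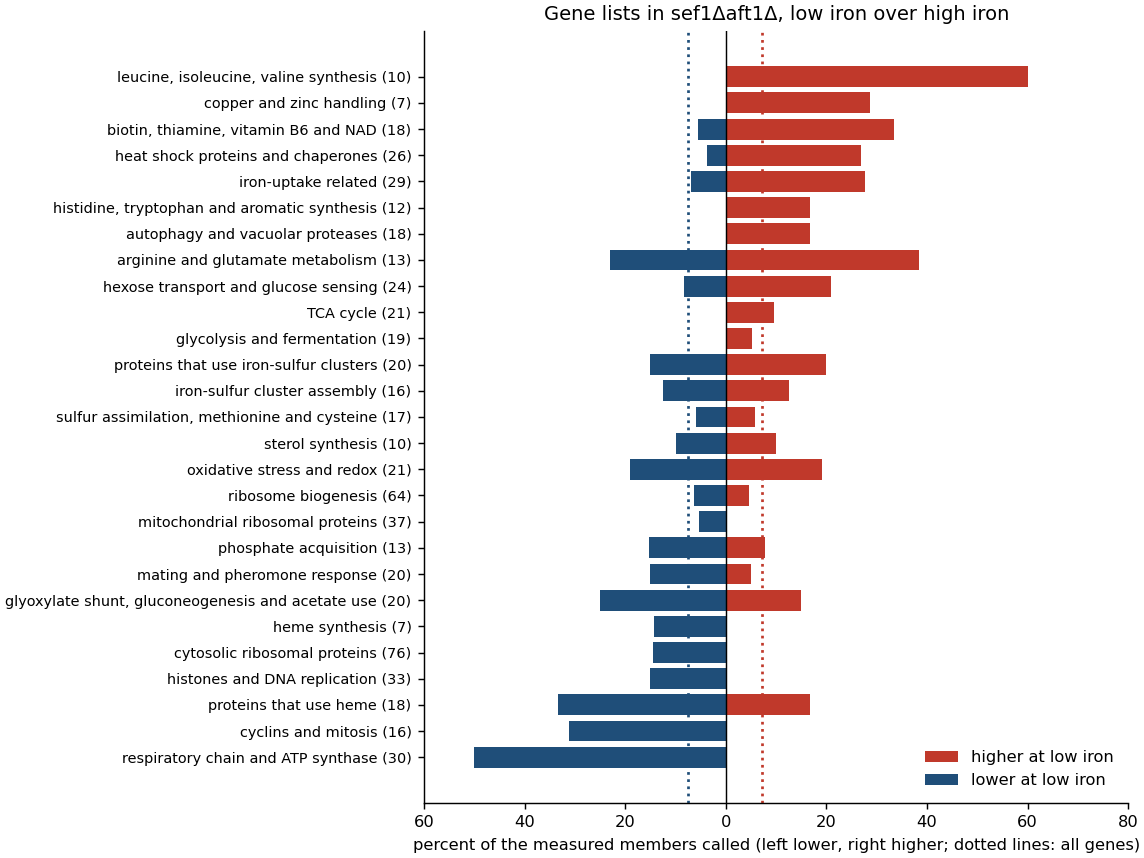
For each gene list with at least 1 call, bars give the percent of measured members (number in parentheses) called higher (right) and lower (left) at low iron in sef1Δaft1Δ, with dotted lines at the shares over all genes. Branched-chain amino acid synthesis reaches 6 of 10 higher, and the respiratory chain with ATP synthase reaches 15 of 30 lower.

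Metal and phosphate genes held a few further calls. Of 7 other copper and zinc genes 2 rose, ZRT1, which is also among the iron-uptake genes, and ZAP1, the zinc-responsive activator, which read −0.21, 0.03, −0.07, and −0.12 at low iron and −1.05, −0.76, −0.99, and −1.01 at high iron (a rise of 0.86 ± 0.09, adjusted p = 9.4e-09). Of 13 phosphate genes PHO3, an acid phosphatase, rose (1.01) and PHO84 and GIT1 fell, GIT1 at −1.01 with its chosen probe and −0.07 with its second. Sterol synthesis had 1 call in each direction among 10 genes, against shares of 7.15% and 7.49% over all genes, and 0 in either direction without replicate 4. None was called among 11 proteasome genes or 6 genes for non-heme iron proteins, which moved by medians of 0.07 and 0.07.

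Called genes lay on all 8 chromosomes, between 12.1% of genes on chromosome A and 16.05% on chromosome H, and the median difference by chromosome ranged from −0.09 on G to −0.03 on C.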

How the data were processed

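RNA of 31 cultures was measured on one-color arrays. The authors scanned them with Feature Extraction 10.5.1.1 and deposited spot intensity values that are background-subtracted and spatially detrended, with median foreground and background intensity. The authors also deposited a log2 table from GeneSpring GX 11.5, scaled to the 75th percentile. Set against the arrays, it is the log2 intensity minus 1 constant per array, and it is not centered per gene (column medians −1.22 to −1.11 for sef1Δaft1Δ).

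Here each array's 75th percentile over 10620 non-control probes was subtracted from log2 intensity, and spots marked as non-uniform outliers were left out (3 to 192 per sef1Δaft1Δ array). One probe was used per gene. It came from the part of the authors' best probe list read here for 1999 genes, from another table for 919, and was the probe with the higher mean signal for 2398. Of 5316 genes 2253 have an ortholog name in the part of the study's tables read here, and 33 used a probe marked as cross-hybridizing. Of these 2253, 186 were higher and 212 lower in sef1Δaft1Δ. The lists hold only genes with a name, whereas the shares over all genes include the others. List names without a match were left out. Among them were 21 of 47 for the respiratory chain and ATP synthase and 20 of 36 for iron-sulfur cluster assembly. For the proteasome they were 25 of 36, and for non-heme iron proteins 11 of 17. A probe that no array of a group read well above background has only a bound in that group, and no fold is given where both groups were so or where the bounded fold was under 1.

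All 31 arrays entered 1 limma 3.58.1 model (R 4.3.3) with a mean per group, since this shares one estimate of the spread. Replicates are biological per the labels. Their number limits the precision, and the median standard error of a difference in sef1Δaft1Δ was 0.12. The arrays' replicate number, also the slide column, was checked for pairing. The deviations of same-numbered sef1Δaft1Δ arrays from their group means correlated at 0.24 to 0.53 (4 pairs). The range was 0.12 to 0.48 in WT, 0.12 to 0.29 in aft1Δ (4 pairs each), and −0.095 to 0.22 in sef1Δ (3 pairs). Paired cultures and a shared slide column cannot be told apart here. The standard errors and adjusted p-values printed come from the model without pairing, and counts with a replicate block are given below. The steps were run on simulated data with independent noise on each array. Those data held neither correlated same-numbered arrays nor an array set apart, so they do not bear on these traits.

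The members and the gene lists were chosen with earlier results of these data known. Named genes were SEF1, AFT1, the iron-uptake and TCA cycle genes, the 15 largest rises and falls with separated groups and a probe well above background in at least 1 group (also among named orthologs), the 5 largest interactions each way among named orthologs, and up to 4 called members per list and direction. COR1, CYT1, DIT2, GRX2, ILV6, PCL2, and SAKL0A03454g were added after their values were seen. Tools were Python 3.11.15 with matplotlib 3.10.9 (plots), numpy 2.4.6, and pandas 2.3.3, and the R package data.table (version 1.17.8) for reading. Normexp used the median intensity.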

Additional observations from a re-analysis of the deposited data

Results flagged for a closer look

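In 30 of 289 groups of 4 sef1Δaft1Δ arrays tested among the named genes, 1 array lay further from the others than Dixon's limit, where chance flags about 1 in 20 groups. Replicate 4 was that array in 24 of the 30. At low iron, replicate 4 was high for SFA1 (−1.15, the others −4.44 to −4.25), BIO3 SAKL0H09504g (0.34, the others −2.55 to −2.25), JEN1 (−1.14, the others −3.72 to −3.36), IMA5 (−0.98, the others −4.07 to −4.04), and PUG1 (−1.32, the others −2.79 to −2.54). It was high by less for ADH5 (0.83), MDH2 (2.45), IDP1 (1.44), CCP1 (−0.26), QCR2 (0.55), and OYE3 (0.31), and low for FRE1 (−0.86), SFC1 (−4.47), and PRM1 (−2.31). At high iron, replicate 4 was high for FAS2 (−2.08), SFA1 (−5.48), BIO3 SAKL0H09504g (−2.87), BIO3 SAKL0H11528g (−1.41), SPO23 (−0.73, the others −2.77 to −2.73), IMA5 (−0.13), FET4 (0.27), and PHO3 (0.56), and low for KGD2 (0.68) and KAR4 (−1.08). The other 6 were low-iron replicate 2 for AFT1 (−7.53, not well above background) and PCL2 (−2.59), low-iron replicate 1 for CTR2 (0.48), and high-iron replicate 1 for CYC7 (2.57), CIR2 (−0.10), and PCL2 (−0.86).

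The iron response of sef1Δaft1Δ differed from that of WT for 725 genes and from that of aft1Δ for 757 by the interaction in limma. Among genes with an ortholog name, the responses furthest below WT were those of FRE2 (−6.61), FET3 (−6.08), HMX1 (−5.56), SIT1 (−5.74), and ARN1 (−4.79). Furthest above WT were FAS2 (4.22), SFA1 (4.15, a value and place not settled because its probe was well above background on 0 of 4 WT low-iron arrays), CRG1 (3.75), LEU1 (3.61), and ESBP6 (3.12). Furthest above aft1Δ were ECM13 (2.95), SFA1 (2.91), PXA1 (2.31), PEX18 (2.21), and ESBP6 (2.20), and furthest below it were PCL1 (−3.86), PTR2 (−2.59), YHP1 (−2.04), INO1 (−1.96), and CLB6 (−1.83).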

How the results depend on the processing

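The counts of genes higher (380) and lower (398) in sef1Δaft1Δ, and of genes whose response differed from WT (725) and from aft1Δ (757), stayed within 1.5 times under the methods' t-test without and with adjustment (first pair of counts only), a model of only the arrays compared, the replicate block, quantile and median scaling, normexp with offset 50, the authors' log2 table, marked spots kept, dim probes left out (well above background on at least 3 arrays), the other probe rules, trend and robust options, and chromosome A left out. They moved with the fold limit. A limit of 2-fold gave 147, 93, 226, and 174 genes, and no fold limit gave 992, 1310, 1243, and 1431. Leaving out 1 array gave 365 to 422 higher, 379 to 444 lower, 695 to 770 different from WT, and 684 to 845 different from aft1Δ. Leaving out both replicate 4 arrays, an alternative chosen after seeing the data, gave 345, 353, 694, and 684. With the replicate block 385 genes were higher and 401 lower, and the block changed no call among the 146 named genes (it moved the count of lower hexose and glucose genes to 4, against 2).

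Of the 107 named genes that were called, 9 lost the call when 1 array was left out. The direction changed for CIT3 alone, −0.057 with its second probe, and the cause was not tested. Another scaling moved the split of higher and lower calls to 432 and 381 (quantile) or 414 and 358 (median), with medians over all genes of −0.04 in both, against −0.06. Probes near background limit AFT1, ARN3, and SFA1. BIO4, the second BIO3 gene, FTR2, and IMA5 passed neither the model of only the arrays compared nor the unadjusted methods' t-test, and THI13 passed the model but not the t-test.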
